A study of Mus musculus with 6 samples.

Results

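H3K27ac, the acetylated form of histone H3 lysine 27, was profiled by chromatin immunoprecipitation and sequencing (ChIP-seq) in C2C12, a line of mouse myoblasts able to fuse into myotubes in culture. Described here are the regions that carried a called H3K27ac peak at every stage but whose peaks were much shorter after differentiation. Overlapping peaks of the 3 lists (by at least 1 bp) were merged, regions with a peak in all 3 lists were kept, and the bp under the peaks of each list were summed. A shared region was a member if its length under peaks at 72 h was at most 0.5 times that in proliferation. This gave 926 narrowing regions, which is 3.20% of the 28908 shared regions (the 3 lists merged into 112926 regions in all). The opposite class was more common, as 6307 shared regions (21.8%) had at least 2 times the proliferation length at 72 h.

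Cells were taken while proliferating and after 36 h or 72 h of differentiation, and the labels name no genetic change or drug. Each stage had 1 H3K27ac library and 1 input library, and each ChIP library pooled DNA of 4 ChIP assays, per the labels. No spread between cultures was therefore measured, and the differences between stages carry no test. Intervals given with shares are 95% Wilson intervals and cover counting error only, and neighbouring regions are not independent of each other.

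H3K27ac is written mainly by the acetyltransferases p300 and CBP and removed by histone deacetylases, and it marks promoters and enhancers in use. Long stretches of it are typical of strongly used promoters and of enhancer clusters that serve cell identity genes. When myoblasts leave the cell cycle and differentiate, factors of the MyoD and Mef2 families recruit these acetyltransferases to muscle genes, while regulatory elements used by the growing myoblast are progressively given up. A region that keeps a peak but over a shorter stretch lies between the regions that keep their full width and those that lose the mark.

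The lists held 57101, 89717 and 97144 peaks for proliferation, 36 h and 72 h, covering 31.3, 56.0 and 63.7 Mb. The median width ratio of 72 h over proliferation was 1.28 over all shared regions, so the narrowing regions ran against the general change. Relative to the proliferation library, the recovered ChIP depth was 1.20 for 36 h and 1.10 for 72 h, and the part of depth in the widths was not tested. All coordinates below refer to mm9 and start at 1. No gene was assigned to a region, so the cell type label was not checked against marker genes.

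The typical narrowing region was a stretch of moderate length in proliferation of which a short remnant was left at 72 h. The median length under peaks was 713 bp in proliferating cells, 432 bp after 36 h and 244 bp after 72 h. The other 27982 shared regions had medians of 657, 902 and 973 bp at the same stages. The members were thus of ordinary width in proliferation and unlike the rest at both later stages. Among the members the lengths ranged from 299 to 4420 bp in proliferation, from 147 to 4696 bp after 36 h and from 147 to 2150 bp after 72 h. The shortest peak in each list was 147 bp, so a region needed at least 294 bp in proliferation to qualify. At 72 h, 58 members (6.26%) stood at exactly 147 bp, against 0.44% of all shared regions. The proliferation and 72 h lengths chose the members and are given as a description.

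**Figure D1:**
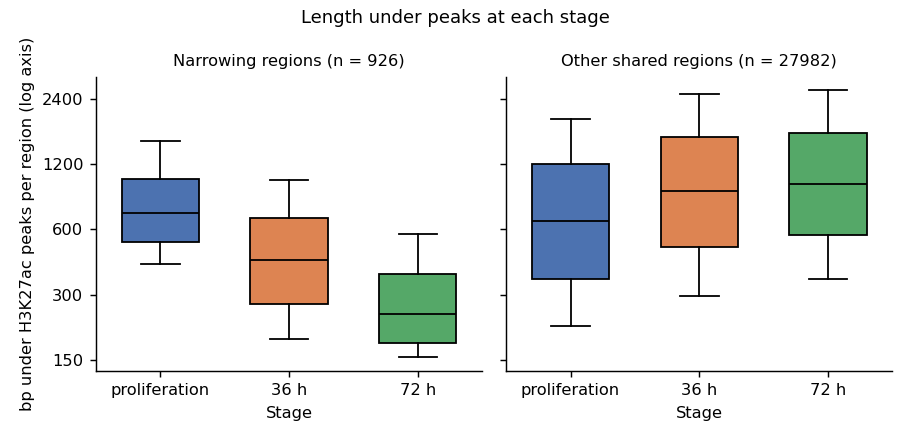
Length under H3K27ac peaks per region (bp, log axis) in proliferation, at 36 h and at 72 h for the 926 narrowing regions (left) and the other 27982 shared regions (right). Lines in the boxes are medians, boxes span the middle 50% of regions and whiskers run from the 10% to the 90% quantile; the narrowing medians step down over 713, 432 and 244 bp while those of the other regions are 657, 902 and 973 bp.

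Narrowing was spread over all widths that could show it, with the highest share at middle widths. Of the shared regions with 294 to 500 bp in proliferation, 3.69% (3.22 to 4.21%) were narrowing. The share was 5.49% (4.90 to 6.14%) from 500 to 750 bp and 5.21% (4.53 to 5.99%) from 750 to 1000 bp. It was 3.42% (2.93 to 4.0%) from 1000 to 1500 bp and 1.42% (1.04 to 1.95%) from 2000 bp upwards. Long regions were therefore rarely cut to the limit, with 38 members among the 2671 shared regions of 2000 bp or more. Over all shared regions of at least 294 bp the share was 3.91% (3.67 to 4.17%).

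The limit cut through a continuous distribution. The median ratio of 72 h to proliferation length among the members was 0.39, and the middle 50% lay between 0.31 and 0.45. Among regions with at least 1 kb in proliferation, the last members inside the limit had ratios of 0.5, 0.498 and 0.497, on chromosomes 4, 9 and 19. The first regions outside it had ratios of 0.5003, 0.501 and 0.503, on chromosomes 3, 16 and 1. On chromosome 4 from 125807264 to 125809159 the lengths were 1862 bp in proliferation, 1687 bp after 36 h and 931 bp after 72 h. On chromosome 3 from 55204484 to 55206012, outside the limit, they were 1529, 224 and 765 bp.

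The 36 h library was not part of the ratio that chose the members, and most members were already shorter there. At 36 h, 359 of the 926 members (38.8%, 35.7 to 41.9%) had at most 0.5 times their proliferation length, compared with 4.93% (4.68 to 5.19%) of the other shared regions and 6.01% of all shared regions. A further 419 members (45.2%) were between 0.5 times and their full proliferation length, against 23.6% of all shared regions. The remaining 148 (16.0%, 13.8 to 18.5%) were at least as long at 36 h as in proliferation, against 70.4% of all shared regions. This ratio shares the proliferation length with the rule, so a long proliferation call lowers both ratios.

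The members therefore followed different courses. Length was lower at each step in 590 members (63.7%), against 7.29% of all shared regions. In 187 members (20.2%) the 36 h length was below that of 72 h, against 55.6% of all shared regions, and the rule bears on both shares. The groups below were set by the 36 h length itself, so the grouping bears on their course. The 359 members that were short at 36 h had median lengths of 854 bp in proliferation, 256 bp after 36 h and 278 bp after 72 h. The 419 intermediate members had 679, 509 and 237 bp. The 148 members that were not shorter at 36 h had 551, 725 and 201 bp. That 72 h was their shortest stage and 36 h not shorter than proliferation is fixed by the grouping and the rule. The groups also differed in their surroundings, as given below for the flanks.

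Peak height was lower together with width in most members. The height of a region is given as the number of fragments at the summit of its strongest peak, recovered from the deposited fold and p-value. The median was 29 fragments in proliferation, 20 at 36 h and 17 at 72 h, while the other shared regions had medians of 30, 36 and 39. Per unit of ChIP depth the median ratio of 72 h to proliferation was 0.56 in the members, with the middle 50% between 0.43 and 0.72, and 1.15 in the other shared regions. The ratio of 36 h to proliferation was 0.59 in the members and 1.013 in the others. At 72 h the summit was lower than in proliferation in 887 of 926 members (95.8%), against 37.6% of all shared regions, and at most 0.5 times as high in 346 members (37.4%), against 3.11% of all shared regions. In a bulk culture, fewer cells with the mark and less of the mark per cell cannot be told apart. Height and width come from the same libraries that chose the members, so these values describe them and support nothing further.

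**Figure D2:**
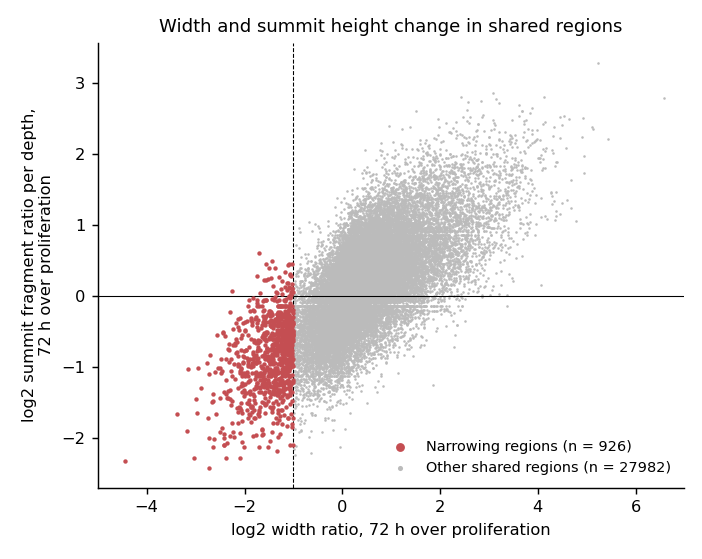
Each point is a shared region, with the log2 ratio of length under peaks (72 h over proliferation) on the x axis and the log2 ratio of summit fragments per unit of depth on the y axis. Red points left of the dashed line (ratio 0.5) are the 926 narrowing regions, of which 887 lie below the horizontal line of equal height, and grey points are the other 27982 shared regions.

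In the 72 h list the members were weak peaks, which they were not in proliferation. The rule chose the members by their peak lengths in these same lists, so the values below are a description. The median fold of the strongest peak, as given by the authors' peak caller, was 7.06 in the proliferation list, 5.71 in the 36 h list and 4.71 in the 72 h list. The corresponding medians of the other shared regions were 6.85, 9.67 and 10.1. The strongest peak had a −log10 q under 5 at 72 h in 504 members (54.4%, 51.2 to 57.6%) and in 8.08% of the other shared regions. In proliferation this held for 113 members (12.2%) and for 18.3% of the others. The local background behind the calls is given relative to the genome background of the library. Its medians were 1.98, 1.06 and 1.22 at the members in stage order, and 1.98, 1.11 and 1.36 at the other shared regions. The part of local background in the 72 h calls was not tested.

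The lengths of members and of other regions of like height are given as a description, since the rule fixes that members are short at 72 h relative to proliferation. Restricted to regions with 14 to 21 summit fragments at 72 h, the 504 members had a median length of 225 bp at 72 h, whereas 3857 other shared regions had 413 bp. In proliferation those same regions had medians of 672 bp in the members and 324 bp in the others. Matched instead on 22 to 37 summit fragments in proliferation, 497 members had 713 bp in proliferation, 398 bp after 36 h and 250 bp after 72 h. The 10419 other shared regions of that proliferation height had 624, 757 and 839 bp.

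A small group was shorter but not lower. In 39 members (4.21%) the summit per unit of depth was higher at 72 h than in proliferation, against 62.4% of all shared regions. These 39 members had median lengths of 644, 507 and 261 bp and median summits of 19, 21 and 25 fragments in stage order. A region on chromosome 14 from 68332219 to 68333783 stood highest among them at 72 h, with 67 fragments in proliferation, 117 at 36 h and 112 at 72 h. Its summit ratio of 72 h to proliferation was 1.52 (95% interval from counting error 1.12 to 2.09), while its length was 1561 bp in proliferation, 1140 bp after 36 h and 480 bp after 72 h. The summits at 72 h and in proliferation lay 8 bp apart, and 869 bp of the missing length lay on the side of lower coordinates. The next, on chromosome 15 from 96659675 to 96661718, had 66, 36 and 73 fragments and a summit ratio of 1.007 (0.71 to 1.43), which does not differ from equal height beyond counting error. These regions were singled out after their values had been seen.

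Within the regions, what was left at 72 h usually lay inside the former peak and, in most cases, over its summit. In 669 members (72.2%) the whole 72 h length lay inside proliferation peaks, against 10.1% of all shared regions, a share that the rule itself favours. A 72 h peak covered the strongest proliferation summit in 614 of 926 members (66.3%, 63.2 to 69.3%), and a 36 h peak covered it in 731 (78.9%, 76.2 to 81.4%). In the other shared regions the 72 h share was 96.7% (96.5 to 96.9%). The widening regions, read in the opposite direction, gave a closer comparison, since there the proliferation peaks are the short ones. Their proliferation peaks covered the strongest 72 h summit in 70.1% (68.9 to 71.2%). The median distance between the strongest summits at 72 h and in proliferation was 86 bp in the members and 68 bp in the other shared regions.

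The length without a 72 h peak lay at a single end in most members. In 531 members (57.3%, 54.1 to 60.5%) at least 75% of the proliferation length with no 72 h peak lay beyond a single end of the 72 h peaks. Among the 14855 other shared regions with such length the share was 66.0% (65.3 to 66.8%). In 394 (42.5%) it lay at both ends or in mixed positions, and in 1 member it lay mainly between 72 h peaks, against 19.1% and 14.9% of those other regions. In the widening regions the added length was mostly at a single end in 49.3% (48.1 to 50.6%) and at both ends or mixed in 49.1%. A single peak at 72 h was found in 786 members (84.9%) and in 77.5% of all shared regions. There were more peaks at 72 h than in proliferation in 101 members (10.9%), close to the 11.6% of all shared regions, and fewer in 110 (11.9%), against 23.7%. A region with a single proliferation peak cannot have fewer, and this held for 775 members (83.7%) and 67.5% of all shared regions. The shares with fewer peaks therefore depend on the starting number and are a description.

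Around the proliferation summit the peaks drew in from both sides when all members were laid over each other. At the summit itself, 78.9% of members were under a 36 h peak and 66.3% under a 72 h peak. At 0.5 kb on the side of higher coordinates the shares were 51.1% in proliferation, 30.5% at 36 h and 21.4% at 72 h. On the side of lower coordinates they were 48.5, 31.4 and 21.6%, so both sides were alike. At 1 kb towards higher coordinates they were 31.9, 19.1 and 16.1%. In the other shared regions the order of the stages was the opposite, with 43.9, 58.3 and 62.0% at 0.5 kb.

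**Figure D3:**
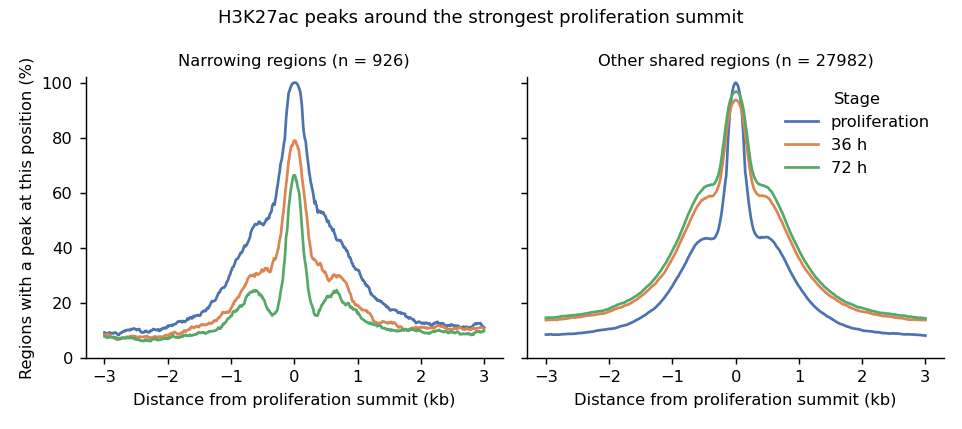
Share of regions (%) with an H3K27ac peak at each distance (kb) from the strongest proliferation summit, for the 926 narrowing regions (left) and the other 27982 shared regions (right), with a line per stage. In the narrowing regions the 72 h line is below the proliferation line, with 21.4% against 51.1% at 0.5 kb, and in the other regions it is above it, with 62.0% against 43.9%; the proliferation line is 100% at 0 by construction.

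The 10 members with the most length missing at 72 h were long regions in proliferation, with 2197 to 4420 bp, of which 147 to 2150 bp were left at 72 h. The first lay on chromosome 12 from 25783329 to 25786546. It was covered by 1 peak of 3218 bp in proliferation, and 190 bp were left at 36 h and 147 bp at 72 h. Its summit had 64 fragments in proliferation, 18 at 36 h and 14 at 72 h, a ratio of 72 h to proliferation of 0.20 (0.10 to 0.36) per unit of depth. The remnant lay 2130 bp from the proliferation summit, near an edge of the former peak, with 2885 bp uncovered beyond it. The proliferation fold of 14.7 was above that of 96.3% of peaks in its list.

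The next regions by rank differed in where the mark was kept. On chromosome 2 from 71380943 to 71384362 the lengths were 3340 bp in proliferation, 1213 bp after 36 h and 493 bp after 72 h, with 49, 23 and 28 summit fragments. The proliferation summit was no longer under a peak at 72 h, and the strongest 72 h summit lay 1767 bp away. On chromosome 17 from 27692706 to 27695753 the lengths were 3048, 1108 and 722 bp with 48, 32 and 35 fragments. Here the summits were 50 bp apart and length was missing on both sides, with 866 and 1460 bp uncovered. Its summit ratio of 0.66 had a counting interval of 0.417 to 1.048, so a difference in height was not detectable at this depth.

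The fourth, on chromosome 15 from 103132033 to 103136992, was the longest member in proliferation and was longest at 36 h, with 4420 bp in proliferation, 4696 bp after 36 h and 2150 bp after 72 h. Its summit had 81, 76 and 66 fragments. The fifth, on chromosome 15 from 74824422 to 74828134, was shortest at 36 h, with 3713, 522 and 1554 bp and with 64, 16 and 38 fragments. The region on chromosome 11 from 78194620 to 78197812 had 3193, 818 and 1037 bp. The region on chromosome 13 from 60531894 to 60534146 had 2197, 495 and 327 bp, and its proliferation summit was not under a 72 h peak. The last 3 of the 10 lay on chromosome 6 from 124424741 to 124427515, chromosome 1 from 171624535 to 171627849 and chromosome 4 from 56430471 to 56433806. They had 789, 1397 and 1529 bp at 72 h, against 2656, 3236 and 3336 bp in proliferation.

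**Figure D4:**
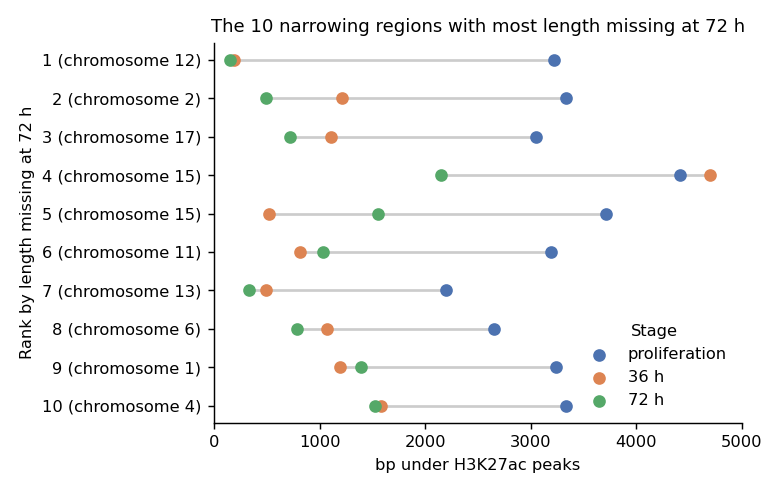
Length under H3K27ac peaks (bp) in proliferation, at 36 h and at 72 h for the 10 members with the most length missing at 72 h, ranked from the top; each dot is the value of a single library. The 72 h dot lies left of the proliferation dot in each, by the rule, while the 36 h dot lies near the 72 h dot in most and beyond the proliferation dot for rank 4 (4696 bp).

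The members with the highest proliferation fold belonged to the top of that list. The chromosome 6 region named above was first, with a fold of 20.8, above 99.5% of proliferation peaks, and with 70, 62 and 45 summit fragments in stage order. On chromosome 11 from 11708006 to 11709777 the fold was 19.8, with 87, 68 and 40 fragments and 1757, 1553 and 841 bp. On chromosome 4 from 58217349 to 58219866 there were 64, 31 and 23 fragments and 2518, 853 and 1013 bp. On chromosome 2 from 72313651 to 72314916 there were 78, 50 and 16 fragments. That region had 1266 bp in proliferation, 1063 bp after 36 h and 191 bp after 72 h, a summit ratio of 0.19 (0.10 to 0.32), the lowest among the members, and no other peak of any list within 25 kb. On chromosome 7 from 142906978 to 142908135 there were 65, 38 and 18 fragments, with 812, 1121 and 326 bp, so it was longest at 36 h. In these 5 the proliferation summit was still covered at 72 h.

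Among members with at least 1 kb in proliferation, the smallest ratios were in regions whose 72 h peak lay off the proliferation summit. Besides the chromosome 12 region, with a ratio of 0.046, these were on chromosome 3 from 121425674 to 121427213 (0.095), chromosome 11 from 62839633 to 62841132 (0.11), chromosome 1 from 84024320 to 84025685 (0.11) and chromosome 5 from 141084560 to 141086086 (0.12). Their lengths at 72 h were 147, 160, 153 and 186 bp, and their 72 h summits had 16, 12, 14 and 9 fragments. In none of these 5 did a 72 h peak cover the proliferation summit, while 77.4% of all members of at least 1 kb had a covered summit. The 5 were chosen for little length left at 72 h, which itself makes a covered summit less likely. Their 72 h peaks were near the lowest values of that list, which were 147 bp and 8 fragments.

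The surroundings of the narrowing regions did not share the general spread of H3K27ac in differentiation. This measure uses only bases outside the region, within 25 kb on each side. Members had a mean of 3728 bp under peaks in these flanks in proliferation, 3644 bp after 36 h and 3434 bp after 72 h, a ratio of 72 h to proliferation of 0.92. The other shared regions had 3018, 4987 and 5331 bp and a ratio of 1.77, and the widening regions a ratio of 2.51. The flanks had less under peaks at 72 h than in proliferation in 520 of 926 members (56.2%, 52.9 to 59.3%), against 16.2% (15.7 to 16.6%) of the other shared regions and 17.4% of all shared regions. Without the nearest 2 kb, an alternative added after the data had been seen, the shares were 44.6% (41.4 to 47.8%) and 14.2% (13.8 to 14.6%), with mean ratios of 0.99 and 1.81.

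The difference was thus of a different kind near the regions and farther out. In the first kb beyond the edge, 23.7% of bases were under proliferation peaks at members, compared with 16.8% at 36 h and 14.8% at 72 h. Between 5 and 6 kb the shares were 7.92, 7.995 and 7.59%, and between 24 and 25 kb they were 4.86, 6.04 and 5.46%. At the other shared regions the 72 h share was above that of proliferation throughout, with 15.9, 21.9 and 23.7% in the first kb and 4.50, 7.87 and 8.36% in the last.

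**Figure D5:**
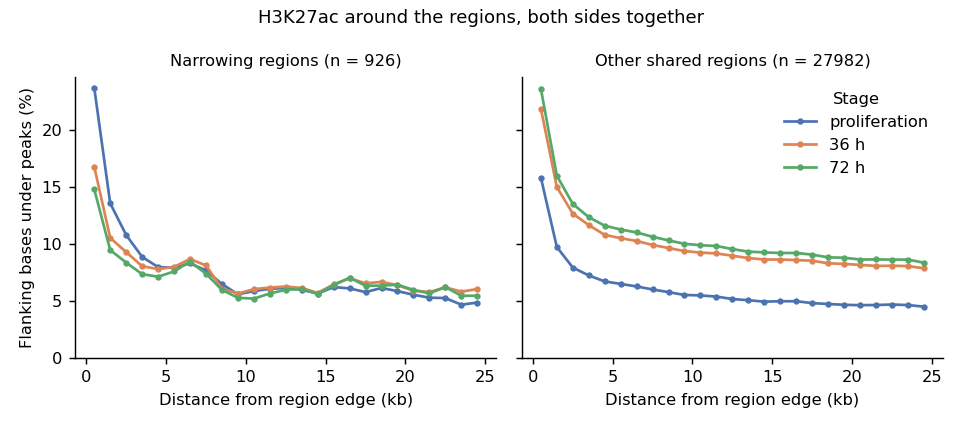
Share of bases (%) under H3K27ac peaks in 1 kb steps from the region's edge (kb, both sides together) for the 926 narrowing regions (left) and the other 27982 shared regions (right), with a line per stage. At the narrowing regions the 72 h line starts below that of proliferation (14.8% against 23.7%) and then runs beside it, whereas at the other regions it stays above it (23.7% against 15.9% in the first kb).

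The kinds of region found nearby differed accordingly. A region with a peak in proliferation and none later lay within 10 kb of 451 members (48.7%, 45.5 to 51.9%) and of 20.4% (19.9 to 20.9%) of the other shared regions. For 273 members (29.5%, 26.6 to 32.5%) such a region lay within 1 kb, against 8.34% (8.02 to 8.67%) of the other shared regions. Whether it was part of the same stretch was not tested. For 178 (19.2%, 16.8 to 21.9%) the nearest lay between 1 and 10 kb, against 12.04% (11.7 to 12.4%) of the others. Conversely, a region with peaks at both later stages and none in proliferation lay within 10 kb of 177 members (19.1%, 16.7 to 21.8%) and of 42.8% (42.3 to 43.4%) of the other shared regions. The median distance to the nearest region of that kind was 39.9 kb from the members and 14.7 kb from the others. When peaks were merged across gaps of up to 1 kb, the proliferation-only share was 14.3% for members and 3.86% for the others, and the share with a later region nearby was 10.3% and 22.5%.

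The surroundings also graded with the width ratio, on both sides of the limit. Of the 120 members with a ratio of at most 0.25, 69.2% had less under peaks in the flanks at 72 h, and of the 806 members above that, 54.2%. The share was 42.2% in the 2067 shared regions with a ratio between 0.5 and 0.75, and 4.96% in the widening regions. A later region lay within 10 kb of 13.3% of the members up to 0.25, 19.98% of those above and 23.7% of shared regions between 0.5 and 0.75. For a proliferation-only region these shares were 56.7, 47.5 and 41.6%, and 35.4% between 0.75 and 1. Widening regions were also scarcer nearby, with one within 10 kb of 76 members (8.21%, 6.61 to 10.2%) and of 23.5% (22.997 to 23.99%) of the other shared regions. The share with a widening region nearby was not graded by ratio. In the graded values the limit of 0.5 marked no step.

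The groups by course at 36 h differed in their surroundings and also in proliferation length, with medians of 854, 679 and 551 bp for those short, intermediate and not shorter at 36 h. Of the 359 members already short at 36 h, 68.5% had less under peaks in the flanks at 72 h and 60.7% had a proliferation-only region within 10 kb. Of the 148 members that were not shorter at 36 h, 42.6% and 27.03% did. The 419 intermediate members lay between them, with 50.4% and 46.1%. Members of at least 1 kb in proliferation, whatever their course, had 69.8% and 64.9%, and the part of length in the difference was not tested.

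Narrowing regions had another narrowing region nearby more often than other shared regions did. Another member lay within 50 kb of 283 members (30.6%, 27.7 to 33.6%), whereas a member lay within 50 kb of 10.1% (9.71 to 10.4%) of the other shared regions. These 283 members formed 123 loci of at least 2 members each, of which 24 held at least 3. Regions cut from a single long stretch count separately here, since the lists were merged by overlap only.

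The loci with the most members lay on chromosomes 11 and 1. On chromosome 11 from 94931713 to 95020471 there were 7 members among 17 shared regions, with 7 proliferation-only regions and 0 later ones between them. All peaks of that locus covered 20503 bp in proliferation, 12497 bp after 36 h and 11135 bp after 72 h, of which the members made up 8009, 6508 and 2397 bp. On chromosome 1 from 195145209 to 195280681 there were 6 members among 20 shared regions, with 11 proliferation-only regions and 3 later ones. The length under peaks was 32095, 25694 and 23428 bp there.

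At a few loci nearly the whole neighbourhood was reduced, and these are named after their values were seen. The locus around the first-ranked member, on chromosome 12 from 25781132 to 25818029, held 4 shared regions, which were all members, and 6 proliferation-only regions. It had 9895 bp under peaks in proliferation, 1293 bp after 36 h and 1405 bp after 72 h. On chromosome 11 from 78185438 to 78213313 all 3 shared regions were members beside 8 proliferation-only regions, and the lengths were 8894, 1225 and 1348 bp. On chromosome 2 from 71377372 to 71384362 all 3 shared regions were members, with 6694, 2747 and 1299 bp. In the first and second of these the length was already at its later level at 36 h, and in the locus on chromosome 2 it was lower again at 72 h.

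By chromosome, excluding unplaced sequence, the share of shared regions that narrowed ran from 2.19% (1.56 to 3.05%) on chromosome 8 to 3.93% (3.20 to 4.81%) on chromosome 2. The intervals of these extremes did not overlap, but the extremes were picked from all chromosomes after their values were seen. A difference between chromosomes was not tested. The other chromosomes lay between these extremes. The X chromosome had 25 members among 654 shared regions (3.82%, 2.60 to 5.58%).

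The number of members depended on how weak peaks were handled. With peaks of a −log10 q of at least 5 alone, 522 of 21005 shared regions were narrowing, and with peaks of a fold of at least 5, 458 of 19268. With each list reduced to its 57101 strongest peaks, 541 of 23809 shared regions qualified.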

How the data were processed

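H3K27ac ChIP-seq peak lists of 3 stages, 1 library per stage, were used; inputs entered only through the authors' peak calls. Per the submitters' processing notes, BWA, MACS2, deepTools and mouse build mm9 were used, with versions not given in the sources used here. Peaks were called per library, per the peak names in the deposited files. The deposited peak lists give each peak's fold over the local background (a ratio), its −log10 p and −log10 q at the summit, and a score that is 10 times the −log10 q cut to a whole number.

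From these, peaks were merged and classed by the rule given with the results, using Python 3.11.15, NumPy 2.4.6, pandas 2.3.3 and SciPy 1.17.1, and drawn with matplotlib 3.10.9. Summit fragments, relative depth and local background were recovered by finding the whole fragment number that gives both the deposited fold and −log10 p (relative tolerance 0.0003), which matched 100, 100 and 99.99% of peaks in stage order. On simulated peaks this recovered the known number in 100% of 3935, 3854 and 3933 peaks. These were made with the same formula, with whole-number local backgrounds above a floor and without fragment numbers as low as the weakest listed peaks. They therefore checked the calculation and not whether the formula holds for these lists. Sequencing depth itself is not given in the lists, so depths are relative to proliferation. Shares carry 95% Wilson intervals, and ratios of summit fragments carry 95% exact intervals. Both cover counting error only.

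Regions were named by rule: the 10 with the most length missing at 72 h, the 5 with the highest proliferation fold, the 5 with the smallest ratio among those of at least 1 kb, and the 3 nearest to the limit on each side. Regions with a higher summit at 72 h and the loci were chosen after their values were seen. The members and the measures were chosen with earlier results of these data known. The gene and promoter tables used build GRCm38, so regions were linked to no gene or sequence.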

Additional observations from a re-analysis of the deposited data

How the results depend on the processing

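No paired analysis was possible because each stage has 1 library, and no replicate could be left out. The alternatives for start sites and for motif windows were not run, as no annotation or genome of build mm9 was used here. Planned at the outset, with earlier results of these data known, were, for the number of members, its settings other than the median-adjusted limit; for the 36 h share, the 1 kb minimum, the −log10 q minimum and the merging across gaps; for the summit ratio, the depth scaling, the local background and the 1 kb minimum; and for later regions nearby, the 50 kb distance. All other pairs of setting and result were added later, after the lists had been read. In all alternatives run, the shares and the summit ratio kept their direction against the other shared regions, and the cause of each shift was not tested. Members were chosen by the length ratio of the same lists in each alternative, so the kept direction is not independent support. The number of members, 926 as reported, was 494 at a limit of 0.4, 1547 at 0.6, 1863 with the ratio divided by its median over all shared regions, 522 with peaks of −log10 q of at least 5, 458 with peaks of fold of at least 5, and 541 with lists of equal number.

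With members of at least 1 kb in proliferation, the share at most 0.5 times as long at 36 h was 48.8%, the summit ratio 0.51, the share with a covered summit 77.4%, with lower flanks 69.8%, with a later region nearby 12.5% and with a proliferation-only region nearby 64.9%. With lists of equal number these were 31.1%, 0.65, 73.0%, 61.6%, 10.7% and 61.6% in the same order. With peaks of −log10 q of at least 5 they were 35.1%, 0.63, 74.3%, 50.6%, 16.7% and 37.0%. With peaks of fold of at least 5 the first 4 were 34.1%, 0.62, 73.1% and 47.8%, and the proliferation-only share was 36.5%. Peaks joined over gaps of at most 1 kb gave 47.6% at 36 h, 43.2% with lower flanks, and 10.3% and 14.3% with a later and a proliferation-only region nearby. A limit of 0.4 gave 42.9% at 36 h, a summit ratio of 0.51, 58.3% covered and 16.0% with a later region nearby. A limit of 0.6 gave 32.6%, 0.61, 72.8% covered and 51.1% with lower flanks, and the median-adjusted limit gave 30.4%, 0.63, 75.6% and 49.97%. Without scaling for depth the summit ratio was 0.62. Flanks without the nearest 2 kb were lower in 44.6%. Within 50 kb, 57.7% of members had a later region, against 75.2% of the other shared regions. For a proliferation-only region these shares were 70.2% and 40.9%. Over all alternatives the other shared regions had 3.56 to 6.28% at 36 h, summit ratios of 1.12 to 1.26 and 95.5 to 99.5% covered. They had 13.2 to 22.9% with lower flanks, 22.5 to 75.2% with a later region and 3.86 to 40.9% with a proliferation-only region.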
